A study of Mus musculus with 20 samples.

Results

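Bone marrow-derived macrophages (BMDMs) from *Mcu*-/- mice were compared after 3 h of zymosan and without it, using 6 of the 20 RNA sequencing libraries of the study. The 3 zymosan libraries carry the column numbers 3, 4 and 5, and the 3 untreated libraries are replicates 1, 2 and 3. A 4th untreated *Mcu*-/- library, replicate 4, was left out of the comparison because its gene counts lie far from those of the other untreated libraries, and it is shown beside them throughout. The libraries were thus selected on their measured gene counts, and the choice rests on these same data, and every p-value below depends on it. The WT libraries, 4 untreated and 5 with zymosan, were used only to show where the response of *Mcu*-/- macrophages differed.

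Zymosan is a preparation of yeast cell wall. Macrophages bind its β-glucan through Dectin-1 and its lipid-linked components through TLR2, and signals from both receptors reach NF-κB, MAP kinases and Ca2+-dependent factors, which switch on cytokine and chemokine genes. Type I interferon made in the process acts back on the same cells and raises a further set of antiviral genes. MCU is the pore of the mitochondrial Ca2+ uniporter, through which mitochondria take up Ca2+ that enters the cytosol during such signaling. The study asked how the loss of this uptake changes the inflammatory response.

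The *Mcu*-/- macrophages came from mice with a floxed *Mcu* gene and a Cre expressed from *Cx3cr1*, and all 7 *Mcu*-/- libraries share this genotype. WT and *Mcu*-/- macrophages were grown from bone marrow in medium conditioned by L929 cells, and zymosan was given at 2 particles per cell. The labels call the libraries biological replicates and do not say whether they came from separate animals. These are bulk measurements, in which fewer cells of a type and less RNA per cell cannot be told apart. Values are normalized counts, which are reads per gene scaled to the TMM-adjusted library size and to the mean library of 20.6 M. A gene was called where edgeR's quasi-likelihood test on the 6 libraries gave a Benjamini-Hochberg adjusted p under 0.05, and only such genes are said to rise or fall. With 3 libraries against 3, an exact two-sided permutation test of a single gene cannot go below p = 0.1.

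*Mcu* itself (ENSMUSG00000009647, chromosome 10 from 59446984 to 59616692 in mm10) was low but present in every *Mcu*-/- library. It had 58.7, 77.8 and 54.3 normalized counts in untreated replicates 1 to 3, 83.5 in replicate 4, and 75.1, 74.2 and 81.8 with zymosan. All 7 values lie below the WT ranges of 134 to 172 untreated and 125 to 149 with zymosan. The zymosan response of *Mcu*, 0.29 on the log2 scale with an SE of 0.17, was not called (edgeR adjusted p = 0.109).

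Replicate 4 stood apart from replicates 1 to 3 in ways that touch the results. Of 11371 genes tested, replicates 1 to 3 differed from the WT untreated mean by at least 1 on the log2 scale in 118 to 138 genes, and replicate 4 did so in 1858, which is 16.3%. Replicate 4 was nearer to the *Mcu*-/- zymosan mean than to the mean of replicates 1 to 3 for 46.2% of genes. Mitochondrially encoded genes took 1.3%, 1.4% and 1.48% of counts in replicates 1 to 3, 0.555% in replicate 4 and 0.499% to 0.621% with zymosan. In other words, on this share replicate 4 lay with the zymosan libraries. WT libraries had 1.28% to 1.55% untreated and 1.15% to 1.36% with zymosan. The 9 macrophage markers summed to 14500 to 14800 CPM (counts scaled to a common library total) in replicates 1 to 3, 8580 in replicate 4 and 10600 to 10900 with zymosan, so the macrophage label holds in all of them. The 8 stromal markers, among them the collagens *Col1a1* and *Col1a2*, summed to 2.93 to 4.7 CPM, 38.9 CPM and 56.5 to 69.4 CPM in the same order, with *Lum* at 3 or fewer counts in every *Mcu*-/- library. In WT macrophages these markers summed to 4.53 to 6.75 CPM untreated and 9.23 to 11.9 CPM with zymosan. The macrophage markers summed to 13400 to 13800 CPM in untreated WT macrophages and to 16700 to 16900 CPM with zymosan, higher and not lower. Of the 9 macrophage markers, 6 rose and 3 fell in *Mcu*-/- macrophages against replicates 1 to 3. The summed T and NK cell, erythroid, and mast cell and basophil markers were at most 0.45 CPM in every *Mcu*-/- library. Neutrophil markers summed to 2.48 to 3.17, 0.159 and 0.545 to 0.764 CPM, B cell markers to 53.6 to 55.5, 18.8 and 12.9 to 13.5 CPM, and dendritic cell markers to 0.783 to 1.21, 0.913 and 10.8 to 11.9 CPM, in replicates 1 to 3, replicate 4 and the zymosan libraries. Of the 7 dendritic cell markers only 1 was tested, and *Flt3*, *Clec9a*, *Siglech* and *Cd209a* had at most 3 counts in every *Mcu*-/- library. In WT the dendritic cell sum was 0.811 to 1.31 CPM untreated and 9.25 to 10.1 CPM with zymosan. Total counts were 20.06 to 23.95 M in the 7 *Mcu*-/- libraries, so depth does not separate the groups. The fold changes of named genes are given against replicates 1 to 3 and, beside that, against replicate 4 alone, and the part of the marker and mitochondrial shifts in any gene's change was not tested. For genes in which replicate 4 lay with the zymosan libraries, zymosan and another difference shared by those libraries cannot be told apart.

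Most of the genes tested in *Mcu*-/- macrophages differed between the zymosan and the untreated libraries. Of the 11371 genes tested, 4597 rose (40.4%) and 4849 fell (42.6%), 83.1% in all. A smaller number changed by at least 1 on the log2 scale, 1768 upward (15.5%) and 2072 downward (18.2%), and for 9510 genes (83.6%) untreated and zymosan libraries had no overlap. With so high a background, a count of called members says little about any single list, and each list is given by its count and median beside the median of -0.0379 over all genes. Against replicate 4 alone, 3702 genes of 11444 were higher (32.3%) and 3757 lower (32.8%), 65.2% in all, with 1218 (10.6%) and 1235 (10.8%) past 1 on the log2 scale. Of the 4597 genes that rose against replicates 1 to 3, 2998 were also called higher against replicate 4, 345 were called lower and 1254 were not called. Of the 4849 that fell, 2892 were also called lower, 341 were called higher, 1444 were not called and 172 were not tested. The replicates within each group were close, with a biological coefficient of variation of 3.07% over the 6 libraries, which became 21.2% when replicate 4 was added as a 4th control. The balance of rises and falls depends on the scaling: with library totals in place of TMM the median moved by -0.551 and 22.6% of called genes were higher, compared to 48.7% with TMM.

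**Figure D1:**
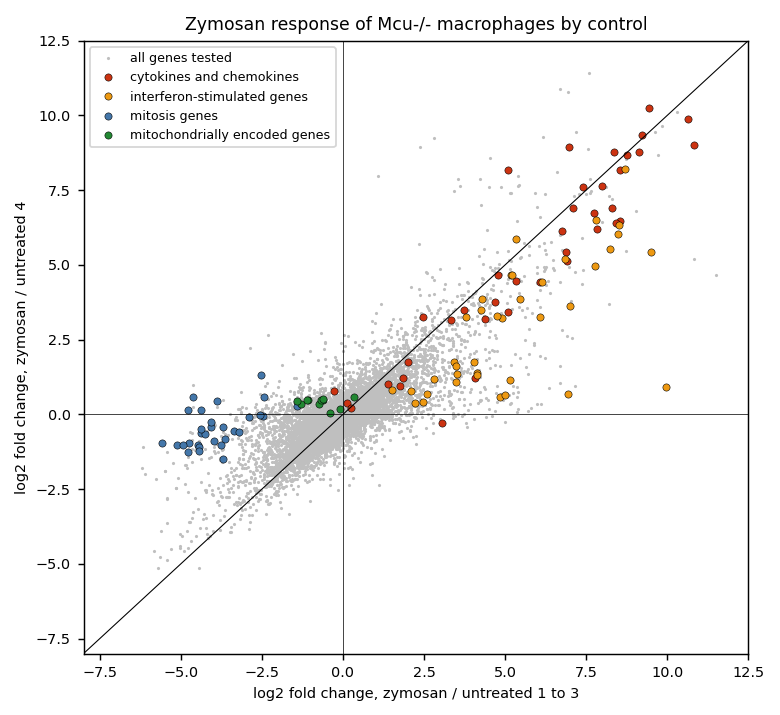
Zymosan response of each gene in *Mcu*-/- macrophages, as the log2 fold change against untreated replicates 1 to 3 (x axis) and against untreated replicate 4 alone (y axis), with all genes tested in grey, 4 gene groups in color and the line of equal response in black. Most cytokine, chemokine and interferon-stimulated genes are high on both axes. Mitosis genes spread along the x axis below 0 and sit nearer to 0 on the y axis.

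Of the receptors through which macrophages sense yeast, some rose and some fell. *Tlr2*, which encodes the receptor for zymosan lipids, had 2279, 2426 and 2380 normalized counts in untreated replicates 1 to 3, 1759 in replicate 4, and 15418, 15997 and 15883 with zymosan. Its log2 fold change was 2.75 (edgeR adjusted p = 1.99e-46, SE 0.03), and 3.19 against replicate 4. *Clec4e*, which encodes the receptor Mincle for fungal and mycobacterial glycolipids, rose from 188 to 236 to 15009 to 15646 (log2 6.22, and 5.52 against replicate 4). Every zymosan library stood above all 4 untreated ones for both genes. *Clec4n*, which encodes the fungal mannan receptor Dectin-2, went from 294 to 311 to 141 to 170, with 114 in replicate 4, so that it fell by 0.96 against replicates 1 to 3 and was called higher by 0.46 against replicate 4. Dectin-1 was not analysed here.

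Downstream of these receptors, *Malt1*, the protease that relays Dectin-1 signals through CARD9 to NF-κB, rose by 3.25 on the log2 scale, and by 3.49 against replicate 4. *Irak2*, a kinase of TLR signaling, rose by 2.73 and 1.39. The adaptor *Card9* and the integrin subunit *Itgam*, part of complement receptor 3, behaved differently. *Card9* had 780 to 831 normalized counts in replicates 1 to 3, 308 in replicate 4 and 310 to 329 with zymosan, a fall of 1.34 against the first and a log2 difference of 0.06 from the second. *Itgam* went from 15149 to 16028 in replicates 1 to 3 to 5556 to 5832 with zymosan, where replicate 4 had 4904, so that it fell by 1.46 against the first controls and was called higher by 0.23 against the other. Of the 24 receptor and signaling genes tested, 16 rose and 7 fell with a median log2 fold change of 0.455, and against replicate 4 the counts were 18 and 2 with a median of 0.451.

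Inflammatory cytokine genes were among the steepest rises. *Il1a*, the alarmin form of IL-1, was almost absent before stimulation, with 4.58, 0.734 and 3.77 normalized counts in replicates 1 to 3 and 1.64 in replicate 4, and reached 1988, 2158 and 2239 with zymosan (log2 fold change 9.43, edgeR adjusted p = 1.67e-45, SE 0.12), at least 867-fold above replicate 4. *Il6*, a driver of the acute phase response, went from 13, 11 and 15.8, and 12.3 in replicate 4, to 7918, 7784 and 8176 (9.23, edgeR adjusted p = 1.47e-54, SE 0.07, and 9.35 against replicate 4). Untreated replicate 4 lay within the range of its replicates for both genes, and the groups were far apart.

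*Tnf*, a first-line cytokine of macrophages, was already present at rest. It had 1907, 2027 and 1757 normalized counts in replicates 1 to 3, 3549 in replicate 4 and 76939, 75493 and 76741 with zymosan, a rise of 5.34 on the log2 scale and of 4.45 against replicate 4. *Il1b*, the secreted IL-1 that needs cleavage by caspase-1, went from 35.9, 44 and 33.9, with 9.82 in replicate 4, to 4390, 4849 and 5084 (log2 6.98, and 8.93 against replicate 4). In both genes the groups were far apart, while the position of replicate 4 set the size of the fold change.

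Among the other cytokines, *Il12b*, a subunit shared by IL-12 and IL-23, rose by 8.54 on the log2 scale, and by 8.19 against replicate 4, to 2393 to 2788 normalized counts. *Il10*, which restrains inflammation, went from 152 to 161 to 838 to 905, a rise of 2.48, and of 3.27 against replicate 4. *Csf3*, the granulocyte growth factor G-CSF, had at most 3 counts in each untreated library, so only a bound can be given, at least 100-fold higher with zymosan at 206 to 242 normalized counts, and at least 91.9-fold higher than in replicate 4. *Ebi3*, a subunit of IL-27, was the member that fell, from 4324 to 4445 to 3518 to 3728 (log2 -0.26), and with 2139 in replicate 4 it was called higher against that library (0.79). Of 23 cytokine genes tested, 22 rose and 1 fell with a median log2 fold change of 6.07, or 5.34 when the 4 genes with at most 3 counts in a group take their bound. Against replicate 4, all 23 were called higher with a median of 6.21, or 4.45 with 5 such genes.

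**Figure D2:**
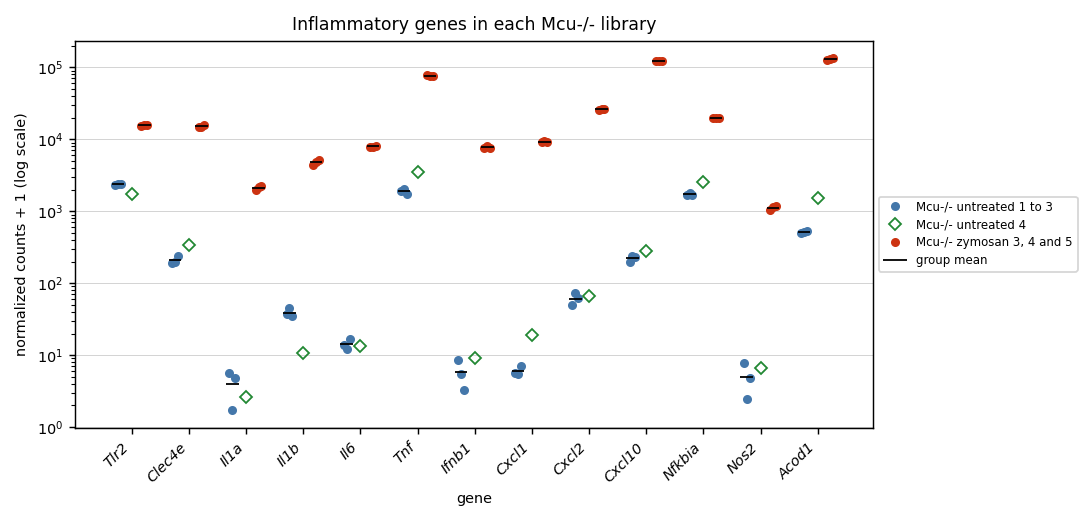
Normalized counts plus 1, on a log axis, of 13 inflammatory genes in each *Mcu*-/- library. Blue points are untreated replicates 1 to 3, green diamonds untreated replicate 4, red points the 3 zymosan libraries, and black lines the means of replicates 1 to 3 and of the zymosan libraries. For each of these genes every zymosan library lies above all 4 untreated ones, for example *Il6* at 7784 to 8176 with zymosan and 11 to 15.8 without.

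Chemokine genes rose as steeply. *Cxcl1* and *Cxcl2* encode the main neutrophil attractants of the mouse. *Cxcl1* went from 4.58, 4.4 and 6.03 normalized counts in replicates 1 to 3, and 18 in replicate 4, to 9194, 9351 and 9077 with zymosan (log2 fold change 10.83, edgeR adjusted p = 1.08e-55, SE 0.08, and 9.01 against replicate 4). *Cxcl2* went from 48.8, 71.2 and 60.3, and 64.6 in replicate 4, to 25857, 26611 and 25955 (8.77, edgeR adjusted p = 1.53e-57, SE 0.06, and 8.68 against replicate 4). *Cxcl10*, which draws T cells through CXCR3 and is induced by interferon as well as NF-κB, went from 193, 237 and 230, and 278 in replicate 4, to 121250, 122590 and 120460 (9.12, SE 0.05, and 8.79 against replicate 4). The zymosan libraries varied little among themselves in all 3 genes, and replicate 4 was no more than a few-fold from its replicates.

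The CC chemokines that attract monocytes and T cells rose as well. *Ccl2* rose by 3.73 on the log2 scale from 2744 to 3026 normalized counts, *Ccl3* by 6.91 from 631 to 700, and *Ccl5* by 8.42 from 34.5 to 38.5. Replicate 4 was higher than replicates 1 to 3 in each of them, at 3402, 2260 and 146, which gave smaller rises of 3.51, 5.13 and 6.41 against it. Of 16 chemokine genes tested, all 16 rose against replicates 1 to 3 with a median of 6.81, or 5.86 when 2 such genes take their bound. Against replicate 4, 15 were higher and 1, *Cxcl14*, was lower, with a median of 5.29, or 4.93 with 2 such genes.

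Reference promoters of some of the steepest cytokine and chemokine genes are shown for the letters that NF-κB, interferon and AP-1 factors are known to bind. They were chosen after their values were seen, each holds at least 1 match, and the shares over whole lists are given after them. They come from RefSeq on GRCm38.p6, the build also called mm10, and each is the stretch of 250 bases before the most upstream start of the gene, printed 5′ to 3′ on the strand of the gene. Capitals mark matches, on either strand, to GGGANNTTCC (called here the NF-κB motif), GAAANNGAAA (the interferon response motif) or TGANTCA (the AP-1 motif). *Cxcl1* (chr5:90890995-90891244, plus strand) and *Cxcl2* (chr5:90903649-90903898, plus strand) lie close together on chromosome 5, and each holds the NF-κB motif on both strands in 1 run of capitals, which counts as 2 overlapping matches. *Il6* (chr5:30012864-30013113, plus strand) and *Ifnb1* (chr4:88522795-88523044, minus strand) have 1 NF-κB match each, and *Il6* has an AP-1 match at the far end. *Cxcl10* (chr5:92348890-92349139, minus strand) has 1 match to each of the 3 motifs. *Il1a* (chr2:129309973-129310222, minus strand), which rose more than *Il6*, has an AP-1 match and none to the other 2 motifs.
*Cxcl1*: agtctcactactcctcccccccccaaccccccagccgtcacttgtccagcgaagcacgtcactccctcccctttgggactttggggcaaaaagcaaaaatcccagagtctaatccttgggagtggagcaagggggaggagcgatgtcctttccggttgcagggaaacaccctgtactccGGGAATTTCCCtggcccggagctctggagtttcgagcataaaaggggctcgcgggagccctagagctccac
*Cxcl2*: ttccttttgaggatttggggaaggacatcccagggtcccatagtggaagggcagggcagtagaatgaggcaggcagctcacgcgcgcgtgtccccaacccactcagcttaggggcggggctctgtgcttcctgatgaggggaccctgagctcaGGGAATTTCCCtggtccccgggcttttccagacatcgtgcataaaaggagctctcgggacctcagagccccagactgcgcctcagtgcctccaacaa
*Il6*: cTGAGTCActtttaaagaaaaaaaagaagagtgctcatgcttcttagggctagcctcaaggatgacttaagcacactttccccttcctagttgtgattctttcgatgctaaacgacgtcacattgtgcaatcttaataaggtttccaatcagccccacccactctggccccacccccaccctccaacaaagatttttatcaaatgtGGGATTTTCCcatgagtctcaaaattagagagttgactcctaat
*Ifnb1*: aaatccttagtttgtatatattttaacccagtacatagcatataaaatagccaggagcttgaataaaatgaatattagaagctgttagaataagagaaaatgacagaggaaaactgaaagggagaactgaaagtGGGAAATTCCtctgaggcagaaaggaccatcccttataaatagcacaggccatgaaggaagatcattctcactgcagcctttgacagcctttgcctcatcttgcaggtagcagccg
*Cxcl10*: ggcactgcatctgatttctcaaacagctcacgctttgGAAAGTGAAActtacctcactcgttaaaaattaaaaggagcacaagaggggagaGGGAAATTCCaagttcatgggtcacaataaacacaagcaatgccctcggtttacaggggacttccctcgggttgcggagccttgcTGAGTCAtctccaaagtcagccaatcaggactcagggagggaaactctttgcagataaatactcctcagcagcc
*Il1a*: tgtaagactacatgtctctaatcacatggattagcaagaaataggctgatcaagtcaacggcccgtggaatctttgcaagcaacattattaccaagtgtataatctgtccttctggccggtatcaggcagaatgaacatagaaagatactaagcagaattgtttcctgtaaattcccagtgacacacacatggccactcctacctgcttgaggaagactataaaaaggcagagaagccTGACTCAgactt

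Over windows from 250 bases before to 50 bases after the start, the NF-κB motif stood in 4 of the 11 chemokine promoters and 3 of the 16 cytokine promoters that RefSeq holds for the genes tested (36.4% and 18.8%). The same motif was found in 1.48% of the 8987 promoters of all genes tested and in 1.44% of all 27025 promoters. Among all genes that rose it was in 1.44%, close to that background. The AP-1 motif stood in 3 of the 11 chemokine promoters (27.3%, 9.75% to 56.6%) and 4 of the 16 cytokine promoters (25%, 10.2% to 49.5%). It was in 4.8% of the promoters of all genes tested and in 5.82% of those that rose. A match in these letters is a description and no measure of binding.

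The genes that feed back on NF-κB rose with the cytokines. *Nfkbia*, which encodes the inhibitor IκBα, went from 1655 to 1811 normalized counts in replicates 1 to 3 to 19618 to 19895 (log2 3.53, and 2.98 against replicate 4). *Tnfaip3*, which encodes the ubiquitin-editing enzyme A20, went from 412, 581 and 488 to 38219, 36907 and 37956, with 1891 in replicate 4 (log2 6.26, and 4.34 against replicate 4). *Nfkbie*, another inhibitor, and *Traf1*, an adaptor of TNF receptors, rose by 6.52 and 6.06, and by 4.82 and 5.63 against replicate 4. Of 19 NF-κB subunit and feedback genes tested, 17 rose and 1 fell with a median of 2.68, and all 19 were higher against replicate 4 with a median of 2.79.

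Immediate early genes, which answer Ca2+ and MAP kinase signals within minutes, were still elevated at 3 h. *Egr1* rose from 157 to 195 normalized counts to 1320 to 1410 (log2 3.00 and 2.60), with 230 in replicate 4. *Nr4a3*, an orphan nuclear receptor induced by Ca2+ signals, rose from 27.5 to 43.3 to 754 to 782 (4.43 and 6.18), with 10.6 in replicate 4. *Fos* is a case where the control decides the size: it had 525 to 548 in replicates 1 to 3, 2427 in replicate 4 and 2997 to 3098 with zymosan, a rise of 2.52 against the first and of 0.35 against the second. *Klf2*, a factor that keeps myeloid cells quiescent, was called higher by 0.51 against replicates 1 to 3 (-0.041 with library totals in place of TMM) and lower by 0.68 against replicate 4, which at 898 lay above both groups. Of 23 genes in this list 19 rose and 4 fell (median 2.08), and against replicate 4 the counts were 15 and 7 (median 0.457).

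Negative regulators of signaling were strongly induced. *Socs3* and *Socs1*, which shut off cytokine receptors, rose by 6.20 and 7.11 on the log2 scale, from 173 to 209 and from 36.2 to 44.8 normalized counts, and by 5.73 and 7.29 against replicate 4. *Dusp2*, a phosphatase of MAP kinases, rose by 5.73, and by 5.35 against replicate 4, and *Cd274*, which encodes the checkpoint ligand PD-L1, by 5.48 and 4.47 from 868 to 904 to 38152 to 40028. *Rcan1*, an inhibitor of calcineurin whose gene is itself a calcineurin target, went from 491 to 532 to 7742 to 7847 (3.93), with 1263 in replicate 4 (2.65). Of the 21 genes of this list that were tested 17 rose and 4 fell (median 2.97), and against replicate 4 the median was 1.99.

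Interferon-β and its target genes rose together. *Ifnb1*, which encodes interferon-β, had 7.63, 4.4 and 2.26 normalized counts in replicates 1 to 3, 8.18 in replicate 4, and 7581, 8050 and 7568 with zymosan (log2 10.65, edgeR adjusted p = 9.76e-54, SE 0.09, and 9.88 against replicate 4). Of 38 interferon-stimulated genes tested, all 38 rose by at least 1 on the log2 scale with a median of 4.94, and all 38 were also higher against replicate 4 with a median of 3.23. *Gbp5*, a guanylate-binding GTPase of antimicrobial defense, went from 88.5, 72.6 and 100 to 36579, 34156 and 36063, with 123 in replicate 4 (8.69 and 8.20). *Cmpk2*, a mitochondrial nucleotide kinase, went from 348 to 381 to 124420 to 132290 (8.50, and 6.34 against replicate 4).

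Some interferon-induced genes were already expressed in replicate 4 without zymosan. *Ifi44l* had 2.29, 0.734 and 3.02 normalized counts in replicates 1 to 3, 1146 in replicate 4, and 2134, 2030 and 2156 with zymosan, so that the log2 fold change was 9.97 against the former and 0.90 against the latter. *Gbp2b*, another guanylate-binding GTPase, had 2.29, 2.94 and 3.02, then 142, then 5221, 4921 and 5309 (10.82 and 5.20). *Ifi205*, of the family of interferon-inducible DNA sensors, had 23.5 to 25.2, then 417, then 16834 to 18122 (9.51 and 5.42). The direction of the response was the same from either control in these 3 genes, and its size was not.

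The promoters of *Gbp5* (chr3:142496684-142496933, plus strand), *Gbp2b* (chr3:142594597-142594846, plus strand) and *Ifi205* (chr1:174031756-174032005, minus strand) are shown for the interferon response motif, which each holds 1 time, with an NF-κB match in *Gbp5* nearer to the start. They are printed like those of the chemokines, with the matches in capitals.
*Gbp5*: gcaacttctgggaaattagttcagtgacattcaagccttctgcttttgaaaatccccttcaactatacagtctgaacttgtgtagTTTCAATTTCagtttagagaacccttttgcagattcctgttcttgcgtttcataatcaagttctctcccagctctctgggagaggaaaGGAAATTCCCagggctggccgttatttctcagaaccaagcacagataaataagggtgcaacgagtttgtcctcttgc
*Gbp2b*: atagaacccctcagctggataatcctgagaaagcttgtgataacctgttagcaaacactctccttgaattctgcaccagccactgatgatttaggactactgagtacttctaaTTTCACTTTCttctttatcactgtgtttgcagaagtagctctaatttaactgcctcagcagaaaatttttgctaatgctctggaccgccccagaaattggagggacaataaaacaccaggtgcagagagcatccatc
*Ifi205*: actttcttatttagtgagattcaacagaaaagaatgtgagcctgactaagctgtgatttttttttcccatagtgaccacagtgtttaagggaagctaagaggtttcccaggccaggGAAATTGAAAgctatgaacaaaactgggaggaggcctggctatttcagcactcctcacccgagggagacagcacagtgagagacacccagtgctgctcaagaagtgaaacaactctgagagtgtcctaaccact

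The interferon response motif stood in 18 of the 31 promoters of interferon-stimulated genes that RefSeq holds (58.1%, 95% Wilson interval 40.8% to 73.6%), compared to 3.33% of the promoters of all genes tested. It was in 4.8% of the promoters of genes that rose, in 7.35% of those that rose by at least 1 on the log2 scale and in 2.31% of those that fell. These genes are known as interferon targets, so the share describes the list and was not tested.

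Inflammasome genes did not move as 1 group. *Nlrp3*, the sensor, went from 1282, 1281 and 1299 normalized counts, with 870 in replicate 4, to 9439, 9508 and 9984 (log2 2.92, and 3.49 against replicate 4). *Casp4*, the caspase that senses cytosolic lipopolysaccharide, rose by 2.44, and by 1.80 against replicate 4. *Txnip*, which binds thioredoxin and restrains glucose uptake, fell from 5958, 5813 and 6111, with 6660 in replicate 4, to 1333, 1312 and 1275 (-2.18 and -2.33). For the adaptor *Pycard*, which encodes ASC, the control decided the call: it had 2560 to 2648 in replicates 1 to 3, 800 in replicate 4 and 747 to 831 with zymosan, a fall of 1.71 against the first and a log2 difference of 0.00053 from the second. Of the 13 genes, 7 rose and 5 fell (median 0.404), and 9 and 3 against replicate 4 (0.401).

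In prostaglandin synthesis the inducible enzymes rose and the constitutive one fell. *Ptgs2*, which encodes COX-2, went from 16, 23.5 and 18.9 normalized counts in replicates 1 to 3, with 92.5 in replicate 4, to 10052, 10022 and 10741 (log2 9.05, and 6.82 against replicate 4). *Ptges*, the synthase that makes PGE2 from its product, rose by 3.48 and 1.80. *Ptgs1*, which encodes COX-1, fell from 592 to 652 to 109 to 116 (-2.44), and with 156 in replicate 4 it fell by 0.44 against that library. Of 16 genes of this list, 11 rose and 2 fell (median 0.495), and against replicate 4 the median was 0.028.

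Matrix proteases and their inhibitors rose in most cases. *Mmp13*, a collagenase, went from 204 to 249 normalized counts to 13868 to 14315, with 1002 in replicate 4 (log2 5.98 and 3.83). *Serpinb2*, an inhibitor of urokinase, went from 7.34 to 15.1 to 409 to 472 (5.40, and at least 177-fold above replicate 4), and *Adamts4*, an aggrecanase, from at most 3 counts in each untreated library to 663 to 784 normalized counts, at least 319-fold higher, and at least 293-fold against replicate 4. Of 17 genes of this list 14 rose and 3 fell (median 2.13), and against replicate 4 the median was 0.877. *Tnn*, which encodes the matrix protein tenascin-N, was not counted in replicates 1 to 3, had 13.1 in replicate 4 and 317 to 348 with zymosan, at least 146-fold higher than in replicates 1 to 3 and 25.3-fold higher than in replicate 4. *Mmp9* and *Plau* turned with the control. *Mmp9*, a gelatinase, fell by 1.66 from 4547 to 4883 to 1454 to 1509, while replicate 4 had 1177 and gave a rise of 0.35, and *Plau*, which encodes urokinase, rose by 1.25 against replicates 1 to 3 and fell by 0.47 against replicate 4.

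Nitric oxide and itaconate synthesis, both hallmarks of inflammatory macrophages, were induced from either control. *Nos2*, the inducible nitric oxide synthase, went from 6.87, 1.47 and 3.77 normalized counts, with 5.73 in replicate 4, to 1029, 1147 and 1190 (log2 8.11, edgeR adjusted p = 2.22e-40, SE 0.14, and 7.61 against replicate 4). The arginine transporter *Slc7a2* went from 13 to 13.9 to 2227 to 2318 (7.39 and 5.90), and *Ass1*, which regenerates arginine from citrulline, from 259 to 304 to 1464 to 1497 (2.42 and 1.39). Of 15 genes of arginine metabolism and alternative activation, 10 rose and 4 fell (median 1.1), and against replicate 4 the median was 0.503. *Acod1*, which makes itaconate from a TCA cycle intermediate, went from 497, 514 and 531, with 1536 in replicate 4, to 126830, 130850 and 133170, 256-fold higher, with a log2 fold change of 6.43 against replicate 4. *Cybb*, the catalytic subunit of the phagocyte NADPH oxidase, went from 9693 to 10024 to 46925 to 48552 (2.30 and 1.81), while of the 7 genes of that oxidase 2 rose and 4 fell (median -0.103), and against replicate 4 5 were higher and none lower (median 0.199).

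Surface molecules for T cells rose in the same way. *Cd69*, an early activation antigen, went from 91.7 to 98.8 normalized counts to 29340 to 30444 (log2 8.29 and 7.22), and *Cd40*, the receptor for CD40 ligand, from 190 to 214 to 6624 to 6835 (5.06 and 3.71), with 203 and 520 in replicate 4. Of 22 genes of costimulation and antigen presentation tested, 20 rose and none fell (median 1.33), and 17 rose against replicate 4 (median 0.749).

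Genes of the resting macrophage moved both ways. Of 22 tested, 12 rose and 10 fell with a median of 0.295, and against replicate 4 the counts were 7 and 9 with a median of 0.00654. Among the rises were *Itgax*, the integrin CD11c, from 32.8 to 33.8 normalized counts to 482 to 541 with 169 in replicate 4 (log2 3.96 and 1.63), and *Axl*, a receptor for dying cells, from 67.5 to 90.5 to 736 to 785 with 473 in replicate 4 (3.28 and 0.72). The genes named next fell against either control. *Maf*, a factor of macrophage identity, went from 17088, 16259 and 16549 normalized counts, with 11672 in replicate 4, to 3286, 3162 and 3225 (log2 -2.35, and -1.83 against replicate 4). *Cnr2*, the cannabinoid receptor of immune cells, went from 327 to 363, with 274 in replicate 4, to 8.48 to 13.9 (-4.89 and -4.57). *Cx3cr1*, the fractalkine receptor, went from 220, 216 and 199, with 196 in replicate 4, to 44.8, 34.8 and 44 (-2.34 and -2.23). *Cx3cr1* also drives the Cre of this mouse line, and its untreated level here was below the WT range of 365 to 406, so the effects of the Cre line and of *Mcu* on this gene cannot be told apart.

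Other falls that did not depend on the control came from several processes. *Nfatc2*, a Ca2+-dependent factor activated by calcineurin, went from 2971 to 3075 normalized counts, with 1807 in replicate 4, to 253 to 270 (log2 -3.54 and -2.78). *Tfeb*, the factor that drives lysosome genes, went from 792 to 909, with 714 in replicate 4, to 73 to 97.1 (-3.27 and -3.04). *Ddit4*, an inhibitor of mTORC1, fell by 3.08 and 2.27, and *E2f2*, a factor of the cell cycle, by 4.64 and 3.47. *Fam78a* and *Ccsap* had among the largest falls that held from either control, -5.65 and -5.42, and -4.76 and -4.86 against replicate 4. The clock genes *Per2* and *Dbp* went from 211 to 217 and 238 to 252 to 27.8 to 46 and 70.3 to 79.7 (-2.52 and -1.71, and -2.54 and -1.62 against replicate 4), with 219 and 233 in replicate 4, and *Per1* fell by 0.96 and 1.82. Of 16 clock genes 6 rose and 8 fell (median -0.265), and against replicate 4 the median was -0.404.

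For 1599 of the genes that rose and 1957 of those that fell, the call was not made in the same direction with replicate 4 as the control. For the mitosis genes named here and for *Scd2*, *Enpp2*, *Ndrg1*, *Atp2a3*, *Apoe* and *Trem2*, replicates 1 to 3 lay near untreated WT macrophages, and replicate 4 lay nearer to the *Mcu*-/- zymosan libraries. Mitosis genes are the first case. *Ccnb2*, a B-type cyclin, had 748, 728 and 723 normalized counts in replicates 1 to 3, 19.6 in replicate 4, and 26.7, 27.8 and 32.7 with zymosan, against 673 to 705 in untreated WT and 588 to 668 in zymosan-treated WT macrophages. Its fall of 4.63 on the log2 scale (edgeR adjusted p = 1.96e-35, SE 0.11) became a difference of 0.59 that was not called (edgeR adjusted p = 0.214) against replicate 4.

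*Mki67*, the proliferation antigen Ki-67, had 3182, 3228 and 3634 normalized counts in replicates 1 to 3 and 673, 457 and 595 with zymosan, and replicate 4, at 236, lay below all of them. It fell by 2.53 against replicates 1 to 3 and was called higher by 1.30 against replicate 4. *Plk1*, a mitotic kinase, had 496 to 506, then 29.5, then 13.9 to 14.5, and fell against both (-5.11 and -1.02). *Aspm* and *Pimreg*, a spindle protein and a mitotic regulator, had among the largest falls of the comparison (-6.18 for each), and with 9.82 and 14.7 in replicate 4 their differences from that library were -1.08, which was not called, and -1.78, which was. All 30 mitosis genes fell against replicates 1 to 3, with a median of -4.07, while against replicate 4 the counts were 3 higher and 13 lower with a median of -0.571, beside a WT median of -0.568. Of 33 genes of DNA replication and the G1/S step, 5 rose and 28 fell (median -1.3), and against replicate 4 the counts were 3 and 19 (median -0.49). *Mcm6*, a subunit of the replicative helicase, was among those that rose, by 0.34 (-0.21 with library totals in place of TMM), with a log2 difference of 0.00089 from replicate 4 that was not called (edgeR adjusted p = 0.987).

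Lipid synthesis genes also shifted with the control. *Scd2*, a fatty acid desaturase, had 5649, 5603 and 5804 normalized counts in replicates 1 to 3, 427 in replicate 4 and 222, 216 and 213 with zymosan, a fall of 4.70, and of 0.96 against replicate 4. In zymosan-treated WT macrophages it had 3264 to 4048, far above the *Mcu*-/- values. Of 29 sterol and fatty acid synthesis genes 5 rose and 22 fell (median -0.954), against 6 and 10 with replicate 4 as the control (median -0.24). *Abca1*, the cholesterol exporter, fell from either control, by 1.24 and 0.82.

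In further single genes replicate 4 lay close to the zymosan libraries. *Enpp2*, which encodes the lysophospholipase autotaxin, had 686 to 729 normalized counts in replicates 1 to 3, 18 in replicate 4 and 27.8 to 28.6 with zymosan (log2 -4.64, and 0.66 against replicate 4, not called). *Ndrg1*, a stress and hypoxia gene, had 25103 to 25205, then 4138, then 4518 to 4926 (-2.38 and 0.23). *Atp2a3*, the Ca2+ pump SERCA3, had 467 to 570, then 85.1, then 67.5 to 85.8 (-2.83, and -0.19 against replicate 4, not called). In WT macrophages *Enpp2*, *Ndrg1* and *Atp2a3* stayed near or above the level of replicates 1 to 3 both without and with zymosan.

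The reverse was seen for genes that were high in replicate 4. *Apoe*, the lipoprotein of cholesterol transport, had 5176 to 5711 normalized counts in replicates 1 to 3, 30783 in replicate 4 and 37383 to 38422 with zymosan (log2 2.83, and 0.32 against replicate 4). *Trem2*, a lipid-sensing receptor, had 1443 to 1503, then 7242, then 6501 to 6854 (2.19 and -0.09), and *Csf1r*, the receptor for the macrophage growth factor M-CSF, rose by 0.37 against the first controls (-0.18 with library totals in place of TMM) and fell by 0.22 against replicate 4. The lysosomal proteases *Ctsl* and *Ctsd* rose by 3.17 and 1.21 against replicates 1 to 3, whereas against replicate 4 *Ctsl* rose by 1.18 and *Ctsd* fell by 0.17. Of 29 lysosome genes 23 rose (median 0.802), and against replicate 4 the counts were 19 higher and 7 lower (median 0.192).

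*Arg1*, which breaks down arginine, had 33.6, 26.4 and 18.1 normalized counts in replicates 1 to 3, 308 in replicate 4, and 304, 282 and 330 with zymosan (log2 3.56, edgeR adjusted p = 7.22e-26, SE 0.15), and the difference from replicate 4 was 0.01. *Cxcl14*, an orphan chemokine, had 161 to 191, then 1789, then 1339 to 1534 (3.05 and -0.28), and *Ctgf*, a matricellular growth factor typical of stromal cells, had 9.92 to 13.2, then 327, then 384 to 440 (5.16 and 0.36). Like the summed stromal markers, which were 2.93 to 4.7, 38.9 and 56.5 to 69.4 CPM, these genes were low in replicates 1 to 3 and higher in replicate 4 and with zymosan. Replicate 4 lay below the zymosan libraries for the markers and for *Ctgf*, above them for *Cxcl14* and within their range for *Arg1*, and the part of stromal cells in these changes was not tested.

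**Figure D3:**
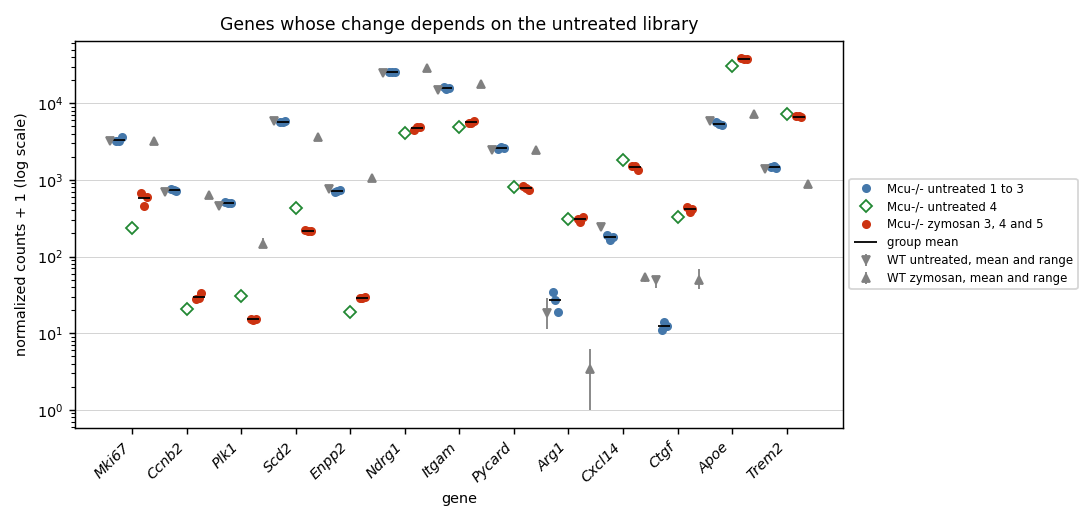
Normalized counts plus 1, on a log axis, of 13 genes whose change depends on the untreated library. Colored points are the *Mcu*-/- libraries (blue untreated 1 to 3, green diamond untreated 4, red zymosan), black lines their group means without replicate 4, and grey triangles the WT mean with the range over libraries. For *Ccnb2* the green diamond at 19.6 lies beside the red points at 26.7 to 32.7, and the blue points at 723 to 748 lie beside untreated WT.

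The direction of change of the mitochondrially encoded genes depended on the control. Of 12 tested, 9 fell, 4 of them by at least 1 on the log2 scale, and none rose, with a median of -0.654, while against replicate 4 8 were higher and none lower, with a median of 0.466, beside a median of 0.248 in WT. Of 40 respiratory chain genes, 18 rose and 13 fell (median 0.0533), and against replicate 4 28 were higher and none lower (median 0.198). The 81 cytosolic ribosomal protein genes tested gave 47 rises and 10 falls (median 0.12), and 79 and 1 against replicate 4 (median 0.323).

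Most genes of the NRF2 and metallothionein list rose, and ATF4 targets moved both ways. *Slc7a11*, the cystine importer driven by NRF2 and ATF4, went from 52.6 to 55.8 normalized counts, with 287 in replicate 4, to 7547 to 7762 (log2 7.15 and 4.75). *Srxn1*, an NRF2 target that repairs peroxiredoxins, rose by 2.68 and 0.73. *Ppp1r15a*, which ends the integrated stress response, rose from 156 to 175 to 14547 to 15341 (6.48 and 4.90), and *Hspa1b*, an inducible HSP70, by 5.97 and 4.38, although reads from its near-identical copy cannot be told apart here. *Ddit3*, which encodes CHOP, was called higher by 0.74 against replicates 1 to 3 and lower by 1.10 against replicate 4, which at 1876 lay above every other *Mcu*-/- library. Of 21 genes of the NRF2 and metallothionein list, 20 rose (median 1.32) and 16 did so against replicate 4 (median 0.524). Of 23 ATF4 target genes, 12 rose and 6 fell (median 0.255), whereas against replicate 4 7 were higher and 11 lower (median -0.178). Of 14 heat shock genes 12 rose and 1 fell (median 1), and against replicate 4 the median was 0.616.

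Glycolysis and hypoxia genes rose in most cases. The lactate transporter *Slc16a1* went from 257 to 260 normalized counts, with 348 in replicate 4, to 5385 to 5760 (log2 4.44 and 4.03). *Hk2*, the inducible hexokinase, went from 4136 to 4527 to 6816 to 6979 (0.70 and 1.22), and *Adm*, the hypoxia-induced peptide adrenomedullin, from 17.3 to 24.9 to 358 to 431 (4.20 and 3.64). Of 34 glycolysis and hypoxia genes, 29 rose and 3 fell with a median of 1.11, and against replicate 4 the counts were 24 and 6 with a median of 0.229. TCA cycle and fatty acid oxidation genes had a median of -0.00767, with 10 of 32 rising and 13 falling.

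Of the other uniporter genes described here, *Mcub* changed most. *Mcub*, the inhibitory paralog of the pore, had 809, 827 and 838 normalized counts in replicates 1 to 3, 280 in replicate 4 and 331, 391 and 295 with zymosan (log2 -1.28, and 0.29 against replicate 4). *Smdt1*, which encodes the scaffold EMRE, fell by 0.40 and differed from replicate 4 by 0.06. The gatekeeper *Micu2* rose by 0.14, and its log2 difference from replicate 4 was 0.07, which was not called. With library totals in place of TMM its log2 fold change was -0.41. In store-operated Ca2+ entry, *Stim2*, a sensor of Ca2+ stores, rose from 720 to 815 to 2836 to 2963 (1.92, and 1.91 against replicate 4). Of 26 genes of store-operated entry, pumps and calcineurin, 15 rose and 10 fell (median 0.129).

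**Figure D4:**
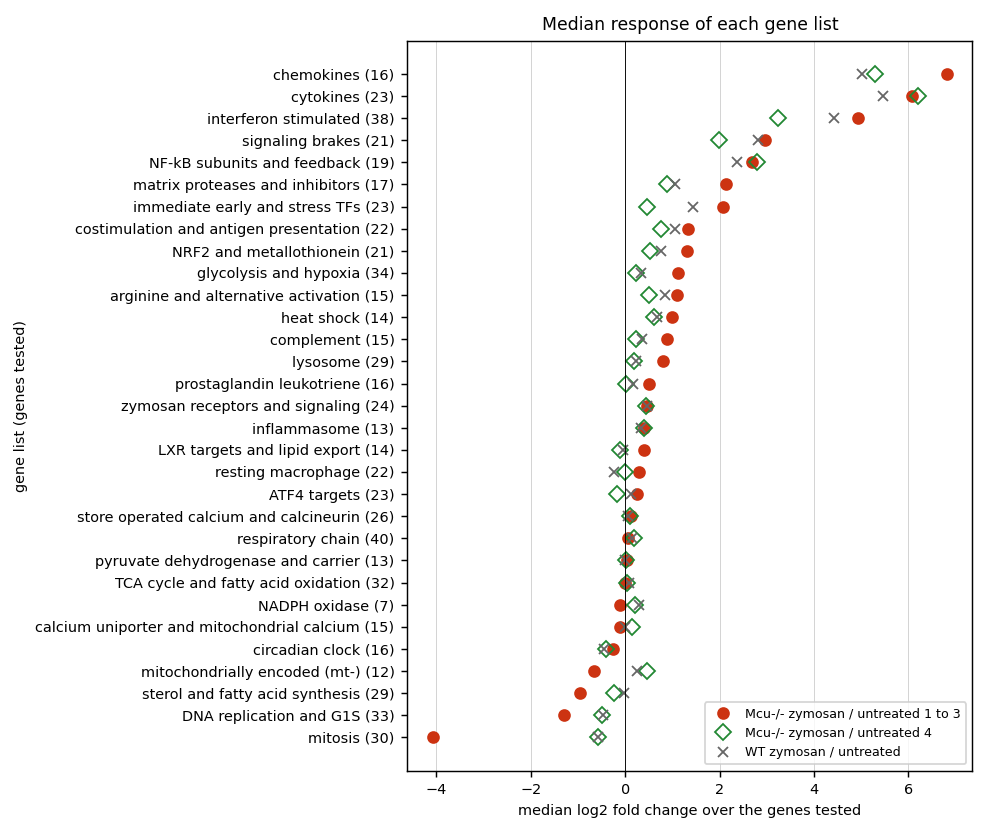
Median log2 fold change of the genes tested in each gene list (number of genes in parentheses), for *Mcu*-/- zymosan against untreated 1 to 3 (red points), against untreated 4 (green diamonds) and for WT zymosan against untreated (grey crosses). Mitosis genes lie at -4.07 against untreated 1 to 3 and at -0.571 against untreated 4, beside -0.568 in WT, whereas cytokines lie at 6.07, 6.21 and 5.46.

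The response was then set against that of WT macrophages, which share no library with it. In WT, 4260 of 11250 genes rose (37.9%) and 4688 fell (41.7%), 79.5% in all, and 1368 (12.2%) and 1512 (13.4%) did so by at least 1 on the log2 scale. Of the genes called higher in *Mcu*-/- macrophages against both controls, 91.4% were also called higher in WT, and of those called lower against both, 92.5% were also called lower. For the genes called against replicates 1 to 3 only, these shares were 31.4% and 39.8%. The difference between the responses was called higher in *Mcu*-/- for 3548 of 11656 genes (30.4%) and lower for 3489 (29.9%), 60.4% in all, and it exceeded 1 on the log2 scale for 790 (6.78%) and 993 (8.52%). With replicate 4 as the only *Mcu*-/- control it was 1360 (11.3%) and 2041 (17%) of 12004, 28.3% in all, and 294 (2.45%) and 342 (2.85%) past 1. Of the 3548, 808 were called in the same direction with replicate 4 and 500 in the opposite one. Of the 3489, 959 and 237 were.

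**Figure D5:**
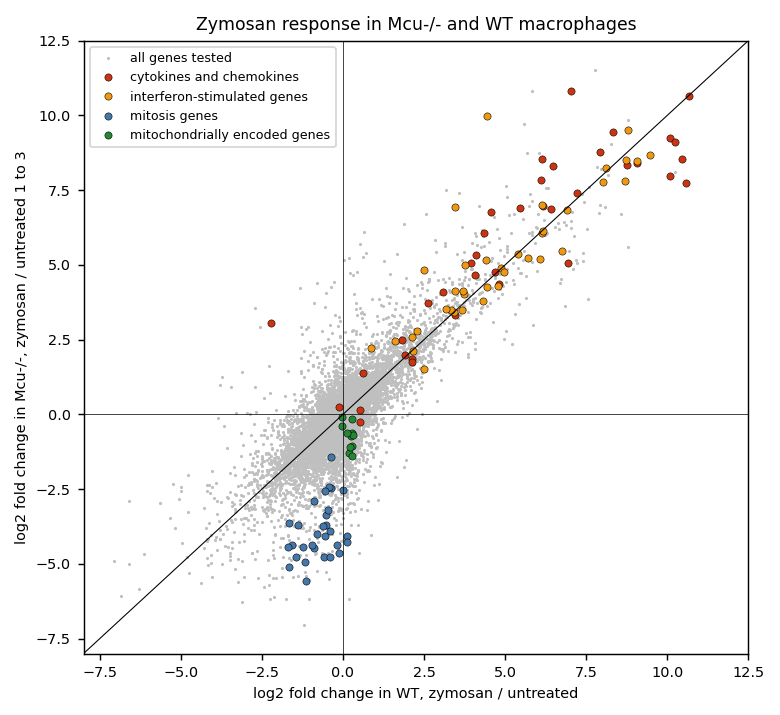
Log2 fold change with zymosan in WT macrophages (x axis) and in *Mcu*-/- macrophages against untreated 1 to 3 (y axis), with all genes tested in grey, 4 gene groups in color and the line of equal response in black. Most cytokine, chemokine and interferon-stimulated genes scatter around the line, with *Cxcl1* at 10.83 on the y axis and 7.03 on the x axis, and mitosis genes lie below it, with medians of -4.07 in *Mcu*-/- and -0.568 in WT.

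Several inflammatory genes responded more in *Mcu*-/- than in WT macrophages with either control. For *Tlr2* the difference of the responses was 0.67 on the log2 scale (edgeR adjusted p = 2.67e-14, SE 0.05), and 1.10 with replicate 4, and the zymosan level was 15418 to 15997 normalized counts compared to 10124 to 11293 in WT. For *Nlrp3* it was 1.36 (edgeR adjusted p = 4.7e-20, SE 0.06) and 1.93, with 9439 to 9984 compared to 3379 to 3896. For *Tnf* it was 1.23 (edgeR adjusted p = 2.39e-21, SE 0.05) and 0.32, and for *Il1b* 0.79 and 2.73, so that the direction held and the size moved with the control. *Adm* (2.17 and 1.60) and *Slc16a1* (1.28 and 0.85) also responded more. In other inflammatory genes the difference changed sign with the control, as in *Ccl3* (1.44 and -0.34), *Ptgs2* (0.75 and -1.48) and *Tnfaip3* (0.31 and -1.62). Of the cytokine genes, 6 had a difference called higher and 6 called lower against replicates 1 to 3 (median 0.00311). With replicate 4 that median was -0.0414.

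*Cxcl1* rose to 9077 to 9351 normalized counts in *Mcu*-/- and to 203 to 248 in WT macrophages. Untreated WT libraries had at most 3 counts of *Cxcl1*, so its rise in WT is at least 80.7-fold, and the fitted difference of 3.78 (edgeR adjusted p = 3.21e-05, SE 0.73), or 1.96 with replicate 4 (edgeR adjusted p = 0.0333), rests on that floor. *Cxcl2* rose by 0.83 more than in WT (0.73 with replicate 4), from untreated levels that were also higher, 48.8 to 71.2 compared to 16.7 to 28.8. The zymosan levels did not overlap between the genotypes for either gene.

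Other genes responded less. *Cxcl10* rose by 1.12 less than in WT (edgeR adjusted p = 6.9e-13, SE 0.09), and by 1.46 less with replicate 4, although its zymosan level was not lower: 120460 to 122590 normalized counts compared to 102430 to 114060. Its untreated level of 193 to 237 lay above the 73.4 to 97.9 of WT. *Ass1* rose by 1.26 less (2.30 less with replicate 4) and ended at 1464 to 1497 compared to 3153 to 3996. *Il12b* reached 2393 to 2788 compared to 1960 to 2319 in WT, where untreated libraries were at the floor and the rise was at least 749-fold, so its fitted difference of -1.93 (edgeR adjusted p = 0.0101) depends on that floor. *Txnip* fell by 1.37 more than in WT (1.53 with replicate 4) and the log2 fold change of *Per1* was lower than in WT (-0.82, and -1.70 with replicate 4).

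*Ifnb1* did not pass the test of a difference in response (-0.06, edgeR adjusted p = 0.882, SE 0.28), with WT untreated libraries at the floor. Its zymosan level was 7568 to 8050 normalized counts in *Mcu*-/- and 1930 to 2312 in WT macrophages, and these ranges did not overlap. *Il6* rose by 0.86 less (edgeR adjusted p = 0.0369), a call that was lost with replicate 4 (edgeR adjusted p = 0.278) and without WT untreated replicate 1 (0.248) or 2 (0.125) or *Mcu*-/- untreated replicate 1 (0.0523) or 3 (0.118), and reached 7784 to 8176 compared to 4500 to 4824. Of 38 interferon-stimulated genes tested, the difference was called higher for 14 and lower for 14 (median -0.0369), and with replicate 4 the median was -1.82, the 14 lower calls held and none of the higher ones did. *Gbp2b* and *Ifi44l*, which replicate 4 expressed at rest, turned from 4.99 and 5.52 to -0.64, which was not called, and -3.55.

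The resting macrophage genes *Cx3cr1* and *Cnr2* fell less than in WT, by 2.89 and 2.16 on the log2 scale (3.00 and 2.47 with replicate 4), with zymosan levels of 34.8 to 44.8 and 8.48 to 13.9 normalized counts compared to 7.05 to 16 and 1.07 to 4.56. *Arg1* fell in WT from 10.5 to 27.6 to between 0 and 5.26 and rose in *Mcu*-/-, a difference of 6.26 (edgeR adjusted p = 7.05e-14, SE 0.48), and of 2.69 with replicate 4. The WT zymosan levels of *Arg1* and *Cnr2* lay near the floor of 2.25 normalized counts, so the sizes of their differences depend on that floor. *Dmpk*, a muscle-type kinase, went from 520 to 563 to 1256 to 1343 in *Mcu*-/- and from 369 to 464 to 24.5 to 43.5 in WT (4.99, and 3.62 with replicate 4). *Ccnd1*, which encodes cyclin D1, had 8370 to 9147 and 12438 to 12556, compared to 8307 to 9109 and 1326 to 1725 in WT (2.96, and 1.82 with replicate 4).

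The direction of these 3 was thus opposite in *Mcu*-/- and WT against replicates 1 to 3, but against replicate 4 the *Mcu*-/- change itself was 0.01 for *Arg1*, -0.10 for *Dmpk* and -0.61 for *Ccnd1*, of which only the last was called. The differences in *Ccnb2* (-4.53), *Mki67* (-2.56) and *Enpp2* (-5.15) did not hold with replicate 4, where they were 0.69, 1.27 and 0.15, and of these only *Mki67* was called. *Serpinb2* rose by 2.03 less than in WT, and with replicate 4, where it was at the floor, the difference was 0.53 and not called. For all 30 mitosis genes the difference was called lower in *Mcu*-/-, and none of these calls held with replicate 4.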

How the data were processed

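RNA of BMDMs was sequenced in 20 libraries. Per the labels and the paper's methods, the authors removed adaptors with cutadapt, aligned the read pairs to the mm10 genome by STAR, and used HTSeq to count reads on each gene. Versions and the strand setting are not given in the sources used here. The deposited table holds raw counts, whole numbers without normalization, for 21963 gene entries, of which 25 have a repeated symbol and were kept apart. The 3 *Mcu*-/- zymosan columns are numbered 3 to 5 while the sample labels count 1 to 3, so columns were assigned to groups and not to samples.

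Counts were fitted in R 4.3.3 with edgeR 4.0.16 (filterByExpr, TMM, glmQLFit and glmQLFTest), on the 6 libraries for the response, on 9 WT libraries for WT, and on these 15 together for the difference of the responses, with Benjamini-Hochberg adjustment over all genes tested and a call at an adjusted p under 0.05. DESeq2 1.42.0 was an alternative, beside other scalings and filters, all 4 controls, replicate 4 as the only control (which lends no spread of its own and is assumed to vary like the other libraries), all 20 libraries in 1 fit and each library left out. Total counts were 20.06 to 23.95 M in the *Mcu*-/- libraries. At most 3 counts in every library of a group was taken as the floor, 2.25 normalized counts per library. Folds given as at least a value divide the zymosan mean by the floor of the untreated libraries, and they carry no error estimate.

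The libraries compared and the gene lists were chosen with earlier results of these data known. The text names the 10 largest rises and falls of the response with at least 10 CPM and no overlap between groups, the 8 most positive and most negative differences, up to 4 called members of each list and genes fixed by name, or a part of these. Further members of the lists were named because their direction turned against replicate 4. Such genes are therefore over-represented in the text. The tests were run on simulated counts to check that known changes were recovered. That simulation held few changed genes and no outlying library, unlike these data. Promoters were from RefSeq on GRCm38.p6, and 8987 of the 11371 genes tested had one. Symbols were located with GENCODE M21, where 21710 matched. Libraries loaded with BAPTA-AM entered only the scaling and the fit of all 20. Some genes are not reported here.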

Additional observations from a re-analysis of the deposited data

Results flagged for a closer look

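In groups of 4 or 5 libraries, the gap from an outermost library to its nearest other was divided by the range of the group. A library was singled out where this ratio exceeded Dixon's 95% critical value, which by chance singles out about 1 group in 20. The check covered 13 library measures in each of 3 groups, beside single genes. Among the 4 untreated *Mcu*-/- libraries, replicate 4 had been set aside because it lies far from the others, so its values restate that choice and are no test of it. It stood apart in the summed macrophage markers (8580 CPM), B cell markers (18.8 CPM), osteoclast markers (25 CPM), stromal markers (38.9 CPM) and endothelial markers (25.9 CPM). It also stood apart in 58 of the 106 genes whose response is given by name. Some of the 106 were named because their direction turned against replicate 4, which raises this count. The share over all genes tested was not computed, so the count describes the named genes only. In WT libraries, untreated replicate 4 had a low total count (14.4 M), untreated replicate 1 had a macrophage marker sum of 13800 CPM, zymosan replicate 2 a T and NK cell marker sum of 0.207 CPM, and zymosan replicate 1 an osteoclast marker sum of 118 CPM.

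The zymosan response differed between *Mcu*-/- and WT macrophages by the test of the difference itself in 3548 genes that were higher and 3489 that were lower. The genes listed next are among 27 picked for this check. Other genes named above were also called, such as *Cxcl2* (0.83). On the log2 scale the difference was higher in *Mcu*-/- for *Arg1* (6.26), *Ifi44l* (5.52), *Dmpk* (4.99), *Gbp2b* (4.99), *Adamts4* (4.10), *Cxcl1* (3.78), *Ccnd1* (2.96), *Cx3cr1* (2.89), *Adm* (2.17), *Cnr2* (2.16), *Nlrp3* (1.36), *Slc16a1* (1.28), *Tnf* (1.23), *Il1b* (0.79), *Tlr2* (0.67) and *Mcu* (0.42). It was lower for *Enpp2* (-5.15), *Ccnb2* (-4.53), *Mki67* (-2.56), *Serpinb2* (-2.03), *Il12b* (-1.93), *Txnip* (-1.37), *Ass1* (-1.26), *Cxcl10* (-1.12), *Il6* (-0.86) and *Per1* (-0.82). For *Ifi44l*, *Adamts4*, *Cxcl1* and *Il12b* the WT untreated libraries were at the floor of 3 counts, so that the fitted sizes depend on the prior count. For *Arg1* and *Cnr2* the WT zymosan libraries lay near that floor, and the same holds.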

How the results depend on the processing

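Library totals in place of TMM gave 2319 higher and 7927 lower genes in the response, and a minimum absolute log2 fold change of 1 gave 1768 and 2072. For the difference of the responses, all 4 untreated *Mcu*-/- libraries gave 1484 higher and 2130 lower, replicate 4 alone 1360 and 2041, and a minimum of 1 gave 790 and 993. In WT a minimum of 1 gave 1368 and 1512. Leaving out 1 library at a time gave 4483 to 4578 higher and 4764 to 4828 lower genes in the response, 3324 to 3544 and 3316 to 3502 in the difference, and 4182 to 4289 and 4504 to 4658 in WT. With replicate 4 as the only control, the direction turned for *Mcub* (0.29), *Smdt1* (0.057), *Itgam* (0.23), *Clec4n* (0.46), *Card9* (0.065), *Ebi3* (0.79), *Klf2* (-0.68), *Pycard* (0.00053), *Mmp9* (0.35), *Plau* (-0.47), *Csf1r* (-0.22), *Trem2* (-0.092), *Mki67* (1.30), *Ccnb2* (0.59), *Ndrg1* (0.23), *Ddit3* (-1.10), *Ctsd* (-0.17), *Enpp2* (0.66) and *Cxcl14* (-0.28). Many of these genes were named because their direction turned, so their number does not measure how common this was among all genes. With library totals the direction turned for *Micu2* (-0.41), *Klf2* (-0.041), *Csf1r* (-0.18) and *Mcm6* (-0.21). For the difference, among the 27 genes picked for that check, it turned with replicate 4 for *Ccnb2* (0.69), *Enpp2* (0.15), *Gbp2b* (-0.64), *Ifi44l* (-3.55), *Mki67* (1.27) and *Serpinb2* (0.53), and with all 4 controls for *Ifi44l* (-1.55). The cause was not tested.

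Of the 106 genes whose response is given by name, all but *Mcu* kept their call, where tested, under DESeq2, its size factors, both filters and each library left out, and 24 of 27 differences did, all but those of *Mcu*, *Il6* and *Adamts4*. Without *Mcu*-/- untreated replicate 2 the response of *Mcu* was called (0.46, edgeR adjusted p = 0.0237). The difference in *Adamts4* was lost without WT untreated replicate 1 (edgeR adjusted p = 0.110), and that in *Mcu* (edgeR adjusted p = 0.0492) without most single libraries, up to an adjusted p of 0.166 without *Mcu*-/- untreated replicate 3. No paired analysis was possible because the 6 columns compared share only the number 3 between untreated and zymosan, and the zymosan columns could not be matched to the numbers 1 to 3 of the labels. With replicate 4, which is not in the comparison, they would also share the number 4. With the replicate number as a block within WT, the difference was higher for 3547 and lower for 3474 genes, and the WT response for 4217 and 4631. All 20 libraries with replicate 4 as the *Mcu*-/- control, an alternative chosen after seeing the data, gave 3478 higher and 3930 lower genes in the response.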
